A study of Caenorhabditis elegans with 36 samples.

Results

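The genes described here are 10 cuticle collagens of Caenorhabditis elegans that build struts or set body shape, namely bli-1, bli-2, bli-6, lon-3, rol-6, sqt-1, sqt-3, dpy-13, dpy-14 and dpy-17. They were chosen by name, with earlier results of these data known. Their counts were read from each of 36 libraries of whole-worm RNA, in which they are 10 of 46778 gene identifiers. The animals were of strain N2 (wild type) or of strain BY273 (PD animals). They were grown without krill oil (control) or with krill oil at 0.5 µl per ml of medium, and RNA was taken at adult day 1, 3 and 6. For aging studies, the methods describe animals put on krill oil medium at the last larval stage and kept on it from day 1 to day 6. PD animals carry transgenes for GFP and human α-synuclein under the dat-1 promoter, which is active in dopaminergic neurons, whereas the genotype field of the sample labels reads wild type for both strains. Each of the 12 groups of strain, diet and age has 3 libraries, numbered in the labels. The results of the paper call them biological replicates, and its methods do not say how they arose. The p-values measure the spread between these samples. All animals were hermaphrodites kept without FdUrd, a drug that blocks reproduction, and after day 2 they were washed and filtered daily through a nylon net to remove progeny.

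The cuticle is the collagen-rich coat of the worm. Its collagens are secreted by the epidermis and are made anew at each molt, in waves of transcription that follow one another within a molting cycle, and the adult does not molt. The products of bli-1, bli-2 and bli-6 are needed for the struts, the pillars that join the inner and outer layers of the adult cuticle, and animals that lack them form fluid-filled blisters. The others are known from their effect on body form. Mutations give long animals for lon-3, helically twisted animals that roll for rol-6, short or twisted animals for sqt-1 and sqt-3, and short, fat animals (dumpy) for dpy-13, dpy-14 and dpy-17. The SQT-3 protein is processed by the protease DPY-31, and dpy-17 is needed for its proper secretion.

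In WBcel235, bli-1 (chromosome II, 10708960 to 10712156, plus strand), bli-2 (II, 5651394 to 5652434, minus), rol-6 (II, 8733050 to 8734239, plus) and sqt-1 (II, 11336693 to 11337837, minus) lie on chromosome II. On chromosome IV lie bli-6 (6377065 to 6378168, plus) and dpy-13 (4235614 to 4236710, plus), and on chromosome V lie lon-3 (12197437 to 12198645, minus) and sqt-3 (12352745 to 12354320, plus). The gene dpy-17 is on chromosome III (5107330 to 5108492, plus) and dpy-14 on chromosome I. The exons of bli-1 cover 3.01 kb and those of the other 9 genes cover 0.989 to 1.422 kb. On the opposite strand, bli-1 shares 7 bp of exon with dph-2, sqt-3 overlaps the non-coding RNA F23H12.13, and the spans of bli-2 and lon-3 overlap zyg-1 and ogdh-2 with no shared exon. Whether counting used strand is not given in the sources used here. The log2 fold changes of dph-2, zyg-1 and ogdh-2 with krill oil lay between -0.20 and 0.29 in the 6 comparisons of diet.

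Libraries held 16488713 to 34605080 counts (median 24785463), and ribosomal RNA genes took 5.31% to 24.5% of them. The 10 collagens together took 0.00499% to 0.0869% of a library. Levels are in CPM (a count divided by its scaled library total) on 1 common scale, and a gene rose or fell where the adjusted p of edgeR's quasi-likelihood test, over all genes tested in that comparison, was under 0.05. Over all 10 members and 36 libraries, 7 values were 0 counts. In those libraries 3 counts, the limit that a count of 0 allows, correspond to 0.0876 to 0.125 CPM, for counting error only. The 9 genes listed for epidermal structure (among them vab-10, ajm-1 and mup-4) had counts in every group, at a summed level of 773 to 1396 CPM per group. Whether they are specific to the epidermis was not tested. The sum was lowest in PD controls of day 6, where 2 of the 9 genes had a mean under 1 CPM, against 0 in each other group. In whole-worm RNA, fewer cells of a type and less RNA per cell cannot be told apart.

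The 10 genes did not behave as 1 group. The strut genes bli-1, bli-2 and bli-6 were low in controls of every age and high with krill oil at day 3 and 6 in both strains. The genes dpy-14, dpy-17 and sqt-3 were high in PD controls at day 3, in wild type controls at day 6 and with krill oil at day 3, and were lower again with krill oil at day 6. The genes lon-3, rol-6, sqt-1 and dpy-13 were high with krill oil at day 3 and 6, as the strut genes were, and also in wild type controls at day 6. These sets were drawn from the values themselves and describe them, with no test.

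**Figure D1:**
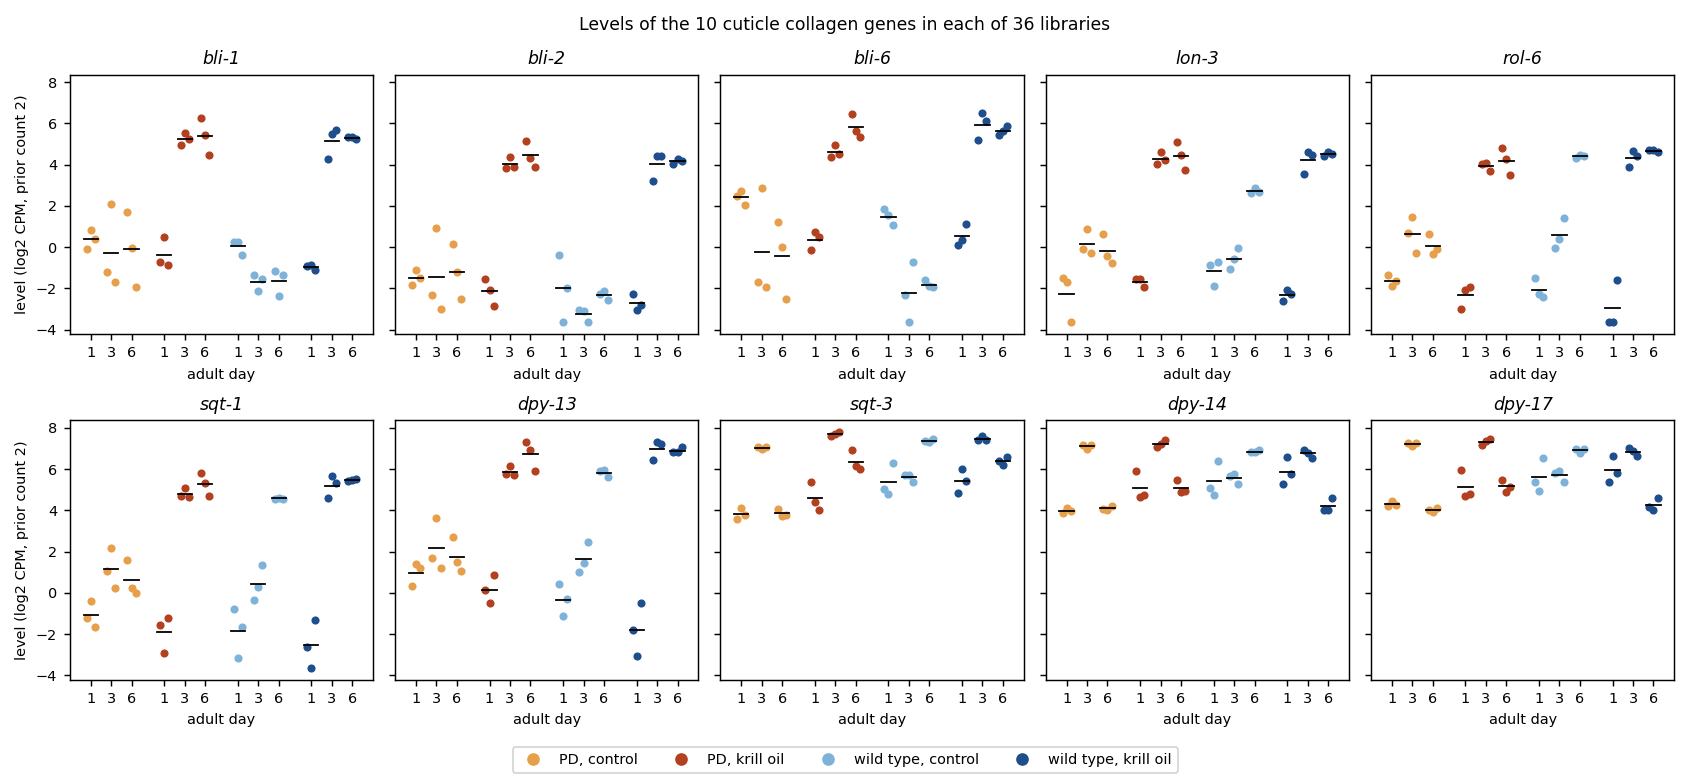
Level of each of the 10 collagen genes (log2 CPM, prior count 2) in the 36 libraries, by adult day, with 1 point per library and a bar at the mean of the 3 libraries of a group. With krill oil the strut genes bli-1, bli-2 and bli-6 are high at day 3 and 6 in both strains, while dpy-14 and dpy-17 peak at day 3 in PD controls and at day 6 in wild type controls.

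In PD controls, bli-1 was at 0.856, 1.68 and 1.25 CPM at day 1, 0.350, 4.11 and 0.228 CPM at day 3, and 3.21, 0.900 and 0.183 CPM at day 6. In krill oil-fed PD animals it was at 0.525, 1.31 and 0.473 CPM at day 1, 30.9, 46.1 and 38.1 CPM at day 3, and 77.2, 42.7 and 22.4 CPM at day 6. All 6 PD krill oil libraries of day 3 and 6 lay above all 9 PD control libraries, and the libraries of day 1 overlapped between diets. Groups without overlap were common, at 31.5%, 52.6% and 56.5% of all genes tested between the diets in PD animals at day 1, 3 and 6 and at 28.4%, 51.2% and 67.6% in the wild type. In wild type controls the same gene was at 1.1, 1.12 and 0.692 CPM at day 1, 0.314, 0.145 and 0.263 CPM at day 3, and 0.369, 0.112 and 0.314 CPM at day 6. With krill oil, wild type animals had 0.457, 0.477 and 0.382 CPM at day 1, 19.3, 45.3 and 51.3 CPM at day 3, and 39.9, 40.4 and 37.8 CPM at day 6. The wild type libraries of the 2 diets did not overlap at day 3 or 6 and were separated there by over an order of magnitude.

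The second strut gene bli-2 followed the same course at a lower level. It was at 14.1, 20.5 and 14.5 CPM at day 3 and 35, 20.2 and 14.6 CPM at day 6 in krill oil-fed PD animals. In PD controls it reached no more than 1.84 CPM in any library. In wild type controls of day 3 it had 1, 1 and 0 counts, which are 0.0392, 0.0363 and 0 CPM, against 9.01, 21.6 and 21.1 CPM with krill oil.

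The third strut gene bli-6 stood out from the other strut genes at day 1, where it was at 5.56, 6.5 and 4.03 CPM in PD controls and at 0.832, 1.57 and 1.30 CPM in PD animals fed krill oil. At day 3 it was at 0.234, 7.11 and 0.183 CPM in PD controls and at 20.5, 31 and 22.4 CPM with krill oil. At day 6 the PD values were 2.22, 0.939 and 0.0915 CPM in controls and 89.0, 49.7 and 39.7 CPM with krill oil. The diets did not overlap at any age, with krill oil lower at day 1 and higher at day 3 and 6. Wild type bli-6 went from 0.118, 0 and 0.526 CPM in controls to 36.3, 89.5 and 69.3 CPM with krill oil at day 3, and from 0.246, 0.186 and 0.179 CPM to 42.4, 49.3 and 57.9 CPM at day 6.

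PD control day 3 replicate 2 stood apart from the other 2 libraries of its group in these genes, with the highest value of 7 of the 10 members, among them all 3 strut genes. At day 6 the highest of the PD controls was replicate 1, for 8 of 10 members. The PD krill oil group of day 6 was spread as well, and its replicate 1 had the highest value of all 10 members. The summed level of the 10 genes in that group was 689 CPM in replicate 1, 445 CPM in replicate 2 and 318 CPM in replicate 3. The 13 molting genes described below spread with them, from 434 to 866 CPM, and the part of such genes in the results was not tested.

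The roller gene rol-6 was low in PD controls, at 0.311, 0.191 and 0.235 CPM at day 1, 1.52, 2.71 and 0.731 CPM at day 3, and 1.49, 0.704 and 0.869 CPM at day 6. Krill oil raised it to 16.2, 17.1 and 12.8 CPM at day 3 and 27.5, 19.1 and 11.1 CPM at day 6 in these animals. At both ages the diets did not overlap in the PD strain. Wild type controls had 0.903, 1.23 and 2.54 CPM at day 3 and 20.1, 22 and 20.9 CPM at day 6. With krill oil, wild type animals had 14.7, 24.9 and 21.6 CPM at day 3 and 25.9, 26.4 and 24.2 CPM at day 6. By day 6, then, the wild type controls stood within 1 doubling of the krill oil group while the PD controls had stayed near 1 CPM.

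In dpy-13 the pattern was alike and the levels higher. PD controls had 3.11, 12.5 and 2.24 CPM at day 3 and 6.45, 2.78 and 2.01 CPM at day 6, against 54.5, 70.8 and 52.4 CPM and 162, 121 and 60.6 CPM with krill oil. Wild type controls had 1.96, 2.65 and 5.43 CPM at day 3 and 59.3, 61.8 and 49.7 CPM at day 6, against 88.1, 158 and 146 CPM and 112, 112 and 136 CPM with krill oil. The diets did not overlap in any of these 4 pairs of groups. The genes sqt-1 and lon-3 shared this course, and the 2 wild type control means of day 3 and day 6 were 1.45 and 23.9 CPM for sqt-1 and 0.626 and 6.48 CPM for lon-3.

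The dumpy gene dpy-17 took another course. PD controls had 18.3, 21.9 and 18.9 CPM at day 1, 154, 141 and 156 CPM at day 3, and 16.0, 15.2 and 17.3 CPM at day 6. With krill oil, PD animals had 61.8, 26.1 and 27.5 CPM, then 142, 164 and 179 CPM, then 44.2, 29.6 and 35 CPM at the same ages. The diets overlapped at day 3, where both were high, and did not overlap at day 1 or 6. Wild type controls had 41.1, 30.7 and 92.3 CPM at day 1, 56.6, 60.4 and 41.5 CPM at day 3, and 126, 109 and 127 CPM at day 6. Wild type animals with krill oil had 41.7, 99.5 and 56.5 CPM, then 130, 118 and 99.1 CPM, then 17.7, 15.9 and 23.9 CPM. The wild type diets overlapped at day 1, stood higher with krill oil at day 3 and lower at day 6.

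The levels of dpy-14 were close to those of dpy-17 in every group, with group means of 15.9 to 151 CPM for dpy-14 and 16.1 to 162 CPM for dpy-17. The third gene of this course, sqt-3, differed from them at day 6 with krill oil. It was at 135, 125 and 135 CPM in PD controls and 193, 210 and 222 CPM in PD animals fed krill oil at day 3, and at 16.8, 13 and 13.6 CPM and 120, 70.6 and 64.5 CPM at day 6. Krill oil-fed wild type animals had it at 84.7, 74.4 and 95.2 CPM at day 6, where dpy-14 had 16.2, 16.0 and 24.2 CPM. Neither gene overlapped between the diets at day 6 in either strain.

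Per kb of exon, dpy-17 or dpy-14 was the most abundant of the 10 at day 1 in each of the 4 groups, with dpy-17 at 17.7 CPM per kb in PD controls. At day 6 with krill oil the most abundant was dpy-13, at 116 CPM per kb in PD animals and 121 CPM per kb in wild type animals. In these 2 groups the least abundant was bli-1, at 15.8 and 13.1 CPM per kb, so that the 10 genes spanned less than an order of magnitude. In wild type controls at day 6 they spanned from 0.0880 CPM per kb for bli-1 to 117 CPM per kb for sqt-3.

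The comparison of krill oil with control asks what the supplement does at each age. In PD animals at day 1, 6 of the 10 members had enough counts to be tested, and bli-2, lon-3, rol-6 and sqt-1 did not. Of the 6, 2 were higher and 1 was lower with krill oil, where 7.44% of all genes tested were higher and 8.07% lower. The strut gene bli-6 fell from 5.36 ± 1.25 to 1.23 ± 0.374 CPM (SD, n = 3), which is -2.14 on the log2 scale (standard error 0.25, edgeR adjusted p = 0.00019). The dumpy genes dpy-14 and dpy-17 rose, by 1.23 (0.28, edgeR adjusted p = 0.0123) and 0.98 (0.28, edgeR adjusted p = 0.0342) on the log2 scale. Without krill oil replicate 1, the highest library of its group, they were 0.68 and 0.44 (edgeR adjusted p = 0.000713 and 0.011). The call of dpy-17 was lost when any 1 of the 3 control libraries was left out, with values of 0.92 to 1.06 and edgeR adjusted p of 0.0729 to 0.106, and by DESeq2 (0.97, adjusted p = 0.131). At the same age in wild type animals, 0 of 6 tested members passed by edgeR or DESeq2, where 4.87% of all genes tested were higher and 2.49% lower. At an unadjusted p under 0.05, 2 passed, bli-1 and bli-6, with log2 fold changes of -1.12 and -0.99.

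At day 3, krill oil raised 8 of 10 members and lowered 0 in PD animals, where 21.2% of all genes tested were higher and 19.9% lower. The median of the members was 3.21 on the log2 scale against 0.00 for all genes tested. The strut gene bli-1 rose by 4.5 (standard error 0.44, edgeR adjusted p = 5.24e-06), bli-2 by 4.48 and bli-6 by 3.19. These 3 values were made smaller by control replicate 2, the highest library of its group for the 3 strut genes. Without that library the log2 fold changes were 7.00 for bli-1, 7.51 for bli-2, 6.83 for bli-6, 4.16 for sqt-1 and 4.44 for dpy-13. With it, sqt-1 rose by 3.44, dpy-13 by 3.24, rol-6 by 3.15 and lon-3 by 4.06 (0.23, edgeR adjusted p = 4.45e-08). The rise of sqt-3 was small, 0.65 (0.04, edgeR adjusted p = 2.24e-07), and it was not called with all 36 libraries in 1 fit (0.66, edgeR adjusted p = 0.0758). By DESeq2, bli-6 was not called (3.28, adjusted p = 0.0779). The genes dpy-14 and dpy-17, at their high level in both diets, had log2 fold changes of 0.13 and 0.10 that did not pass.

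In wild type animals at day 3, krill oil raised all 10 members, where 22% of all genes tested were higher and 14.1% lower. The median was 4.78 against 0.00 for all genes. The strut gene bli-1 rose by 7.30 on the log2 scale (standard error 0.48, edgeR adjusted p = 8.19e-06), and bli-6 rose by 8.06, or by 10.03 without control replicate 3. The gene bli-2 had 2 counts in the 3 control libraries together and 1038 with krill oil, a ratio of 774 after scaling, with a 95% interval of 214 to 6402 that covers counting error only (edgeR adjusted p = 8.19e-06). The genes dpy-13, lon-3, sqt-1 and rol-6 rose by 5.24, 4.89, 4.67 and 3.66, with 5.37 for sqt-1 without control replicate 3. Smaller rises were those of sqt-3 (1.88, standard error 0.10), dpy-14 (1.17, 0.13) and dpy-17 (1.13, 0.14, edgeR adjusted p = 0.000226).

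At day 6 in PD animals, krill oil raised all 10 members, where 24.8% of all genes tested were higher and 12% lower. The median was 4.65 on the log2 scale, against 0.05 for all genes tested. The strut genes bli-6, bli-2 and bli-1 rose by 5.71, 5.51 and 4.99 (standard errors 0.51, 0.50 and 0.63, edgeR adjusted p = 5.93e-05, 6.26e-05 and 0.000331). The genes dpy-13, lon-3, sqt-1 and rol-6 rose by 4.92, 4.70, 4.60 and 4.23, sqt-3 by 2.58, dpy-17 by 1.20 and dpy-14 by 1.05. Without control replicate 1 the changes were larger, at 6.40 for bli-1, 6.64 for bli-2, 6.78 for bli-6, 5.30 for lon-3, 5.36 for sqt-1 and 5.59 for dpy-13.

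At day 6 in wild type animals, 7 members rose and 3 fell with krill oil, where 30.9% of all genes tested were higher and 32.6% lower. The strut genes rose by 7.23 (bli-1, standard error 0.16, edgeR adjusted p = 6.44e-13), 7.15 (bli-2) and 7.91 (bli-6) on the log2 scale. The rises of lon-3, dpy-13 and sqt-1 were 1.82, 1.08 and 0.91. The rise of rol-6 was 0.29 (0.07, edgeR adjusted p = 0.0023), and it was not called with all 36 libraries in 1 fit (0.28, edgeR adjusted p = 0.381). The genes dpy-17, dpy-14 and sqt-3 fell, with values of -2.64 (0.10, edgeR adjusted p = 2.07e-10), -2.61 (0.11, edgeR adjusted p = 2.58e-10) and -0.97 (0.07, edgeR adjusted p = 3.92e-08). The median over the 10 was 0.99.

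**Figure D2:**
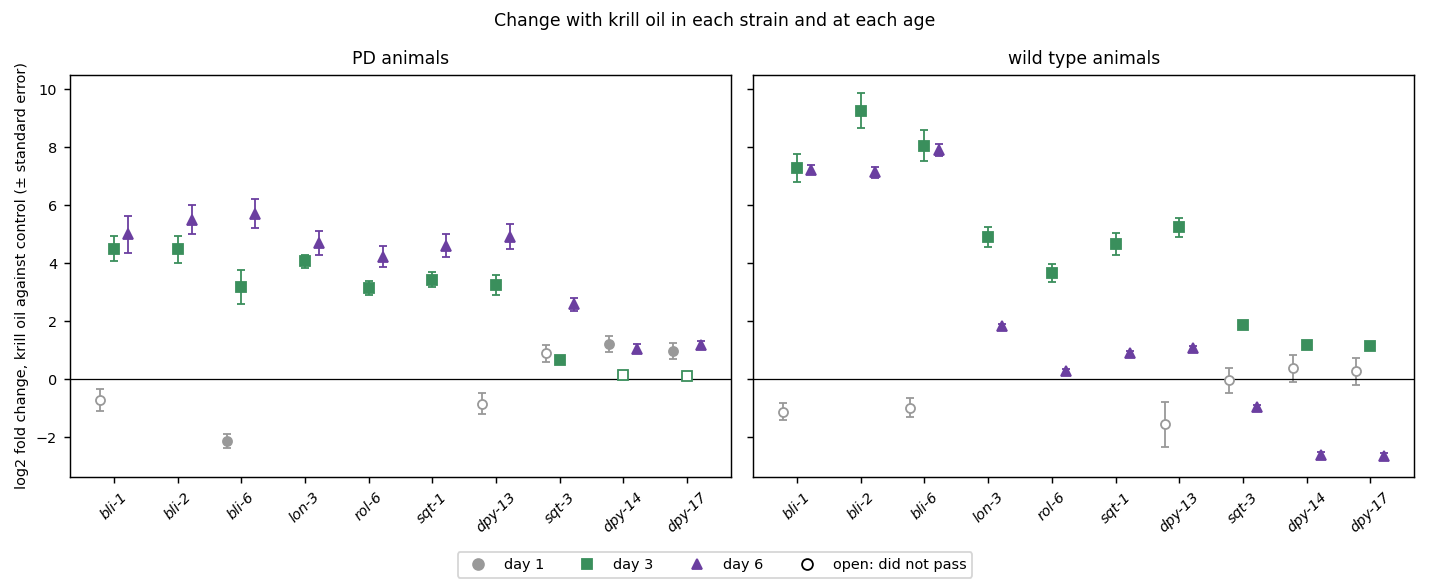
Log2 fold change of each gene, krill oil against control, in PD animals (left) and wild type animals (right) at adult day 1, 3 and 6, with bars of ± 1 standard error from edgeR and open symbols where the adjusted p was not under 0.05. Genes with too few counts for the test have no symbol, and the dpy-14 and dpy-17 symbols of wild type animals lie above 0 at day 3 and below -2 at day 6.

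The difference between the strains in their response was tested in 1 fit per age. Strain and culture history cannot be told apart in such a difference. At day 1, 0 of 6 members differed by edgeR or DESeq2, where 0.0345% of all genes tested had a higher and 0.0552% a lower response in PD animals, and 1 member (bli-6) had an unadjusted p under 0.05. At day 3 the response was lower in PD animals for 4 of 10 members and higher for 0, where 6.2% and 3.4% of all genes were. The difference for sqt-3 was -1.23 on the log2 scale (standard error 0.13, edgeR adjusted p = 8.11e-05), that for dpy-14 was -1.05 and that for dpy-17 was -1.04, and these 3 were not called with all 36 libraries in 1 fit (edgeR adjusted p = 0.0648, 0.136 and 0.127). That for bli-6 was -4.87 (edgeR adjusted p = 0.0359), was not called by DESeq2 (-4.94, adjusted p = 0.0818) and became -1.23 (edgeR adjusted p = 0.709) without PD control replicate 2. It was also not called when PD krill oil replicate 1, 2 or 3, wild type control replicate 1 or 2 or wild type krill oil replicate 2 was left out (-5.07 to -4.31), and it was -6.85 without wild type control replicate 3.

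At day 6 the response was higher in PD animals for 7 of 10 members and lower for 0, where 34.5% and 25.1% of all genes tested were and their median stood at 0.22. The differences were 3.92 for rol-6, 3.82 for dpy-17, 3.82 for dpy-13, 3.67 for sqt-1, 3.64 for dpy-14, 3.53 for sqt-3 and 2.86 for lon-3 on the log2 scale (standard errors 0.20 to 0.45, edgeR adjusted p of 5.15e-08 to 0.000117). Without PD control replicate 1 those of lon-3, sqt-1 and dpy-13 were 3.47, 4.43 and 4.49. The 3 strut genes had differences of -2.26, -1.66 and -2.22 that did not pass (edgeR adjusted p = 0.0923, 0.154 and 0.0662).

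The strains were also compared within a diet, where again strain and culture history cannot be told apart. The methods describe sequencing in pools of libraries, and the run of a library was not used here. In controls at day 1, 1 of 6 tested members was lower in PD animals and 0 were higher, where 3.31% and 3.56% of all genes tested were. This was sqt-3, at -1.69 on the log2 scale (standard error 0.39, edgeR adjusted p = 0.0458). Wild type control replicate 3 was the highest library of its group, at 79.0 CPM against 32.3 and 27.4 CPM, and without it the value was -1.06 (edgeR adjusted p = 0.000453). Without PD control replicate 1, 2 or 3 or wild type control replicate 1 the call was lost, with values of -1.89 to -1.57.

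In controls at day 3, 3 of 7 tested members were higher in PD animals and 0 lower, where 22.4% and 16.3% of all genes tested were. The 3 were dpy-14 (1.51 on the log2 scale), dpy-17 (1.51) and sqt-3 (1.43), with edgeR adjusted p of 1.34e-05 to 2.54e-05. For dpy-17 the PD libraries had 141 to 156 CPM and the wild type libraries 41.5 to 60.4 CPM.

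In controls at day 6 the order was the reverse. Of 8 tested members, 7 were lower and 1 was higher in PD animals, where 44.3% and 37.2% of all genes tested were and their median stood at -0.15. On the log2 scale rol-6 was at -4.26, dpy-13 at -3.81, sqt-1 at -3.72, sqt-3 at -3.46, dpy-17 at -2.84, lon-3 at -2.77 and dpy-14 at -2.69 (standard errors 0.05 to 0.23, edgeR adjusted p of 3.23e-14 to 3.71e-08). No library of 1 strain reached the range of the other for these 7, where 82.3% of all genes tested had groups without overlap. The gene that was higher, bli-1 (2.59, edgeR adjusted p = 0.00607), overlapped between the strains and rested on PD control replicate 1. Without that library bli-1 was at 1.20 (edgeR adjusted p = 0.0761), lon-3 at -3.37, sqt-1 at -4.47 and dpy-13 at -4.47.

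The strains were then compared with krill oil. At day 1, 0 of 6 tested members differed by edgeR or DESeq2, where 1.89% of all genes tested were higher and 1.67% lower in PD animals, and 2 had an unadjusted p under 0.05 (sqt-3 and dpy-13). At day 3, 2 of 10 were higher and 2 lower, where 7.18% and 6.49% of all genes were. The lower ones were bli-6 (-1.42, standard error 0.27, edgeR adjusted p = 0.00769) and dpy-13 (-1.16, 0.19, edgeR adjusted p = 0.00361). The higher ones were dpy-14 (0.46) and dpy-17 (0.47), which were not called with all 36 libraries in 1 fit (edgeR adjusted p = 0.327 and 0.297). At day 6, 1 of 10 was higher and 0 lower, where 0.333% and 0.859% of all genes tested were. This was dpy-17 (0.92, standard error 0.17, edgeR adjusted p = 0.0262), whose call was lost without PD replicate 1 or without wild type replicate 1 or 2 (0.78 to 0.87) and with all 36 libraries in 1 fit (0.91, edgeR adjusted p = 0.123).

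With age, the genes moved in each diet. From day 1 to day 3 in PD controls, 7 of 9 tested members rose and 0 fell, where 29.1% and 26.8% of all genes tested did. The largest rises were those of sqt-3 (3.20 on the log2 scale), dpy-14 (3.11) and dpy-17 (2.93, standard error 0.06, edgeR adjusted p = 4.03e-11). The genes rol-6, lon-3 and sqt-1 rose by 2.76, 2.73 and 2.57 (1.85 for sqt-1 without day 3 replicate 2), and dpy-13 by 1.61 (edgeR adjusted p = 0.0314). The call of dpy-13 was lost by DESeq2 (1.56, adjusted p = 0.122), without day 3 replicate 2 (0.43, edgeR adjusted p = 0.226) and without day 1 replicate 1 (1.34, edgeR adjusted p = 0.106). From day 3 to day 6, 3 of 9 fell and 0 rose, where 37.7% and 34.6% of all genes did. The 3 were dpy-17, sqt-3 and dpy-14, at -3.20, -3.16 and -2.98 (0.05 to 0.07, edgeR adjusted p of 9.21e-14 to 6.43e-13) and so returned to about their level of day 1.

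In wild type controls from day 1 to day 3, 3 of 9 tested members rose and 2 fell, where 7.27% and 7.77% of all genes tested did. The genes rol-6, sqt-1 and dpy-13 rose by 3.29, 2.63 and 2.15 on the log2 scale (edgeR adjusted p = 0.00889, 0.0495 and 0.0308), and bli-6 and bli-1 fell, at -3.53 and -1.99 (edgeR adjusted p = 0.013 and 0.0109). These levels were low, and 4 of the 5 calls did not hold when single libraries were left out. The call of sqt-1 was lost without day 1 replicate 1 or 2 or day 3 replicate 1, 2 or 3 (1.94 to 3.45), and that of dpy-13 without day 1 replicate 2 or day 3 replicate 2 or 3 (1.59 to 2.28). The call of bli-6 was lost without day 3 replicate 1 (-3.27) and its value was -5.49 without day 3 replicate 3. The call of bli-1 was lost without day 3 replicate 2 (-1.74, edgeR adjusted p = 0.0516) and with all 36 libraries in 1 fit (-1.98, edgeR adjusted p = 0.191).

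From day 3 to day 6 in wild type controls, all 7 tested members rose, where 39% of all genes tested rose and 32.5% fell. The rises were 4 for dpy-13, 3.94 for sqt-1, 3.66 for rol-6, 3.28 for lon-3, 1.74 for sqt-3, 1.23 for dpy-14 and 1.16 for dpy-17 on the log2 scale (standard errors 0.09 to 0.25, edgeR adjusted p of 6.23e-08 to 6.97e-06), and sqt-1 was at 4.62 without day 3 replicate 3. The strut genes had too few counts to be tested, at 9 counts for bli-2, 15 for bli-6 and 19 for bli-1 in the 3 libraries of day 6 together. Wild type controls of day 6 therefore held sqt-3 at 160 to 174 CPM and rol-6 at 20.1 to 22 CPM with bli-1 at 0.112 to 0.369 CPM.

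With krill oil all 10 members rose from day 1 to day 3 in PD animals, where 28% of all genes tested rose and 24.9% fell. They also all rose in wild type animals, where 20.7% rose and 19.1% fell. In PD animals the largest rises were those of sqt-1 (6.97 on the log2 scale), rol-6 (6.95) and bli-2 (6.55), and the smallest those of dpy-17 (2.05) and dpy-14 (2.02). That of bli-1 was 5.64, or 6.25 without day 1 replicate 2. The wild type krill oil libraries of day 1 held few counts, as rol-6 had 4 and sqt-1 had 7 in the 3 together, so that their rises are large and uncertain. They were 8.25 for rol-6 and 8.41 for sqt-1, with 7.60 to 11.78 and 7.75 to 9.70 when 1 day 1 library (replicate 1, 2 or 3) was left out. The rise of dpy-13 was 9.03, with 8.45 without day 1 replicate 2 and 10.00 without day 1 replicate 3. Those of dpy-14 (0.81) and dpy-17 (0.82) were not called by DESeq2 (adjusted p = 0.136 and 0.118), nor when any 1 library other than day 1 replicate 2 was left out (0.54 to 0.92).

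From day 3 to day 6 with krill oil, 2 members rose and 3 fell in PD animals, where 8.7% and 13.1% of all genes tested did. For the wild type 0 rose and 3 fell, where 11.6% and 11.1% did. The 3 that fell were dpy-17, dpy-14 and sqt-3 in both, at -2.16, -2.12 and -1.30 in PD animals (edgeR adjusted p of 2.95e-05 to 0.00207) and at -2.58, -2.52 and -1.07 in wild type animals (edgeR adjusted p of 2.48e-06 to 2.59e-05). The 2 that rose in PD animals were bli-6 (1.26, standard error 0.27, edgeR adjusted p = 0.0111) and dpy-13 (0.94, edgeR adjusted p = 0.04). The call of dpy-13 was lost by DESeq2 (0.98, adjusted p = 0.0808) and without day 3 replicate 1, 2 or 3 or day 6 replicate 1 or 2 (0.63 to 1.09).

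The change of the krill oil response with age was tested as an interaction. Between day 1 and day 3 it became larger for 7 of 10 members and smaller for 1 in PD animals, where 13.8% and 11% of all genes tested did. The smaller one was dpy-14 (-1.08), not called by DESeq2 (adjusted p = 0.0814), with all 36 libraries in 1 fit (edgeR adjusted p = 0.0929) or without control day 1 replicate 1 (-1.03, edgeR adjusted p = 0.0532). For the wild type it became larger for 8 and smaller for 0, where 11% and 7.6% did. Between day 3 and day 6 it became larger for 3 of 10 and smaller for 0 in PD animals, where 18% and 13.1% of all genes did. In wild type animals it became larger for 0 and smaller for 7, where 28.2% and 29.1% did. The difference between the strains in this change was not tested. The 3 in PD animals were sqt-3, dpy-14 and dpy-17, and with all 36 libraries in 1 fit dpy-14 and dpy-17 were not called (edgeR adjusted p = 0.127 and 0.0592). The 7 in wild type animals were all members but the strut genes, whose responses at day 3 and 6 differed by -0.03 (bli-1), -2.10 (bli-2) and -0.11 (bli-6) with standard errors of 0.99 to 1.50. These comparisons share their libraries with those above.

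**Figure D3:**
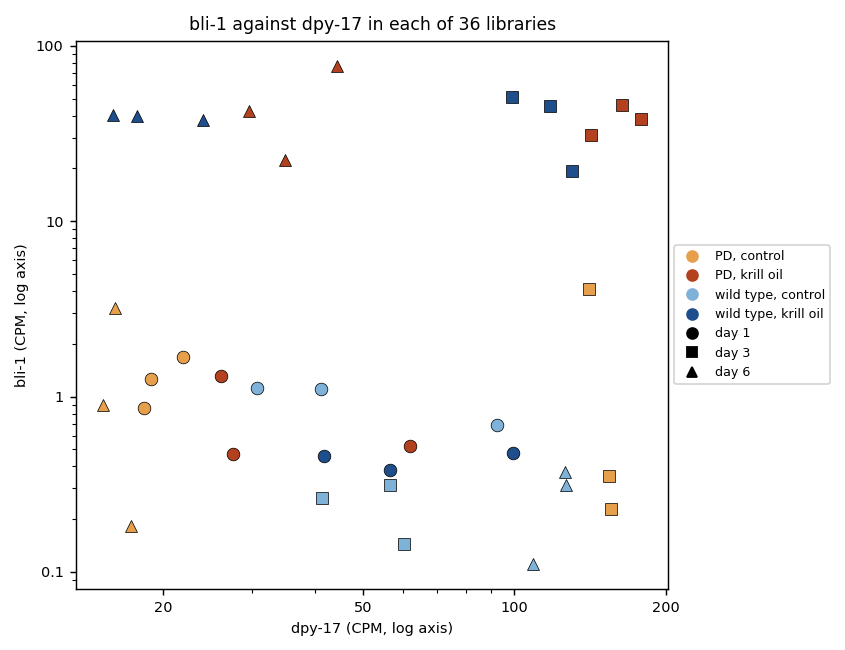
Level of bli-1 against that of dpy-17 in each of the 36 libraries (CPM, both axes logarithmic), coloured by strain and diet, with a symbol for each adult day. The libraries with krill oil of day 3 and 6 all lie at 19.3 CPM or more of bli-1, the day 3 ones at 99.1 to 179 CPM of dpy-17 and the day 6 ones at 15.9 to 44.2 CPM, while the controls reach no more than 4.11 CPM of bli-1 over the same range of dpy-17.

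The likeness of the patterns was described by Pearson's r of log2 CPM over the 36 libraries, which share groups, so that the points are not independent. Over the 45 pairs of members, r lay between -0.08 and 0.996 with a median of 0.67. It was highest for dpy-14 with dpy-17 (0.996) and lowest for bli-6 with dpy-14. The strut genes were alike among themselves (0.91 to 0.98), and so were lon-3, rol-6, sqt-1 and dpy-13 (0.95 to 0.99). Between bli-1 and dpy-17, r was 0.01. When each library was set against its own group mean, r lay between -0.34 and 0.99 with a median of 0.42, and it remained at 0.99 for dpy-14 with dpy-17 and 0.92 for sqt-1 with dpy-13.

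**Figure D4:**
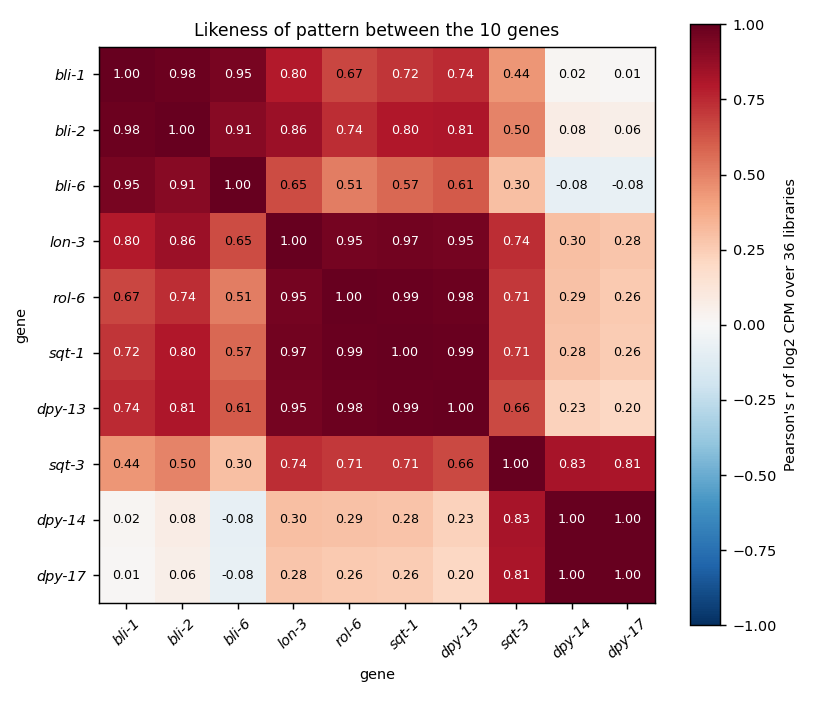
Pearson's r of log2 CPM over the 36 libraries for each pair of the 10 genes, from blue (negative) through white (0) to red (positive). The strut genes bli-1, bli-2 and bli-6, the genes lon-3, rol-6, sqt-1 and dpy-13, and the genes sqt-3, dpy-14 and dpy-17 form blocks, with values near 0 between bli-1 and dpy-17. The blocks are not sharply bounded, with 0.86 for bli-2 with lon-3 and 0.74 for sqt-3 with lon-3. Within its own block sqt-3 has 0.83 with dpy-14 and 0.81 with dpy-17.

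Among 12310 genes with a mean of at least 1 CPM, the 3 with the pattern most like each member's were taken. The closest to rol-6 was col-17 (r = 0.995 over 36 libraries), followed by rol-8 and sqt-2. The closest to sqt-1 and dpy-13 were dpy-5 and dpy-4, both body-shape collagens, with r of 0.99. The closest to bli-6 was rol-1 (0.95), to lon-3 col-48 (0.98), and to both dpy-14 and dpy-17 col-121 (0.99), followed by clec-78 and hbl-1 (0.98 for each). The closest to bli-1 and bli-2 was E01G4.6 (0.98 and 0.99). Next came Y47G6A.15 and col-175 for bli-1, col-71 and dao-4 for bli-2, Y51H7C.13 and Y47G6A.15 for bli-6, ZK180.6 and col-104 for lon-3, sqt-2 for sqt-1 and col-73 for dpy-13. For sqt-3 it was K10D3.4 (0.99), followed by lpr-3, a lipocalin of the apical extracellular matrix, and chtb-1.

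Other collagens and genes of cuticle formation were read from lists. Their counts stand beside those of all genes tested, of which 21.2% rose and 19.9% fell in PD animals at day 3 and 24.8% and 12% at day 6, and 22% rose and 14.1% fell in wild type animals at day 3 and 30.9% and 32.6% at day 6. The 5 other shape collagens dpy-4, dpy-5, rol-1, rol-8 and sqt-2 rose in both strains under krill oil at day 3 and 6, 5 of 5 each time. Their median log2 fold changes were 3.24 and 4.76 in PD animals and 5.16 and 1.05 in wild type animals at day 3 and 6. Within that list rol-1 kept a rise of 9.22 (standard error 0.25) in wild type animals at day 6, from 0.114 to 67.2 CPM, while dpy-4 rose by 1.05, from 63.1 to 130 CPM. The 6 collagens of the annular furrows, dpy-2, dpy-3, dpy-7, dpy-8, dpy-9 and dpy-10, rose 6 of 6 in PD animals at day 3 and 6 and in wild type animals at day 3, with medians of 0.62, 3.02 and 1.51. In wild type animals at day 6, 1 rose and 4 fell, with a median of -0.58. The adult collagen col-19 rose at day 6 in both strains, from 75.7 to 277 CPM in PD animals (1.90, edgeR adjusted p = 6.1e-05) and from 53.8 to 164 CPM in wild type animals (1.61). At day 1 it went the other way, from 1443 to 849 CPM in PD animals (-0.76, edgeR adjusted p = 0.00019) and from 984 to 770 CPM in wild type animals, where it did not pass (-0.35, edgeR adjusted p = 0.102).

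The enzymes that modify, cleave and cross-link procollagens moved less. Of 13 genes, 8 rose in each strain at day 3, with medians of 0.17 in PD and 0.35 in wild type animals and 1 that fell in the latter. At day 6, 9 rose and 0 fell in PD animals (median 0.68), and 5 rose and 4 fell in wild type animals (0.00), where 30.9% of all genes tested rose and 32.6% fell. The prolyl hydroxylase subunit phy-2 rose by 0.60 in PD and 1.16 in wild type animals at day 3. Of the 12 genes of the Sma/Mab TGF-beta pathway, which regulates body size, 1 rose in each of the 6 comparisons of diet, and that gene was lon-1, a secreted protein that acts in body length. In PD animals lon-1 rose by 0.50, 0.29 and 0.64 at day 1, 3 and 6, and in wild type animals by 0.66, 0.35 and 0.65. The other 11 held no riser, and the median of the 12 lay between -0.06 and 0.07 except in wild type animals at day 6, where 7 fell (median -0.36).

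Molting genes were among those that changed. Of 13, 10 rose and 1 fell at day 3 and 13 rose at day 6 in PD animals with krill oil (medians 0.70 and 1.95), and 13 rose at day 3 and 3 rose and 7 fell at day 6 in wild type animals (1.53 and -0.28). Their summed level per group ran from 230 CPM in PD controls of day 6 to 971 CPM in PD animals with krill oil of day 3, was 749 CPM in wild type controls of day 6, and was 736 CPM in PD controls of day 3. With krill oil at day 6 it was 607 CPM in PD and 623 CPM in wild type animals, where dpy-14 was at 34.8 and 18.8 CPM. Markers of some other tissues differed between diets at some ages. The 9 sperm genes had summed group levels of 5.80 to 21.1 CPM, at 5.80 CPM in PD controls and 20.8 CPM with krill oil at day 6, and at 8.58 and 21.1 CPM in wild type animals of that age. In PD animals at day 3 the sperm sum was 10.2 CPM in controls and 9.73 CPM with krill oil. The 15 embryo genes had 30.2 to 52.1 CPM, highest in PD controls of day 3. Their sum in PD animals at day 6 was 32.4 CPM in controls and 32.2 CPM with krill oil. For 9 neuron genes the control and krill oil sums were 371 and 366 CPM in PD animals at day 3. They were 501 and 342 CPM in wild type animals at day 6. For 8 intestine and yolk genes they were 81379 and 78315 CPM in PD animals at day 6. Of 8 body wall muscle genes, 8 rose in PD animals at day 3 and 6 and in wild type animals at day 3 (medians 1.01, 1.24 and 0.79). In wild type animals at day 6 their summed level was 2662 CPM in controls and 3504 CPM with krill oil. The part of these cells in the results for the collagens was not tested.

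**Figure D5:**
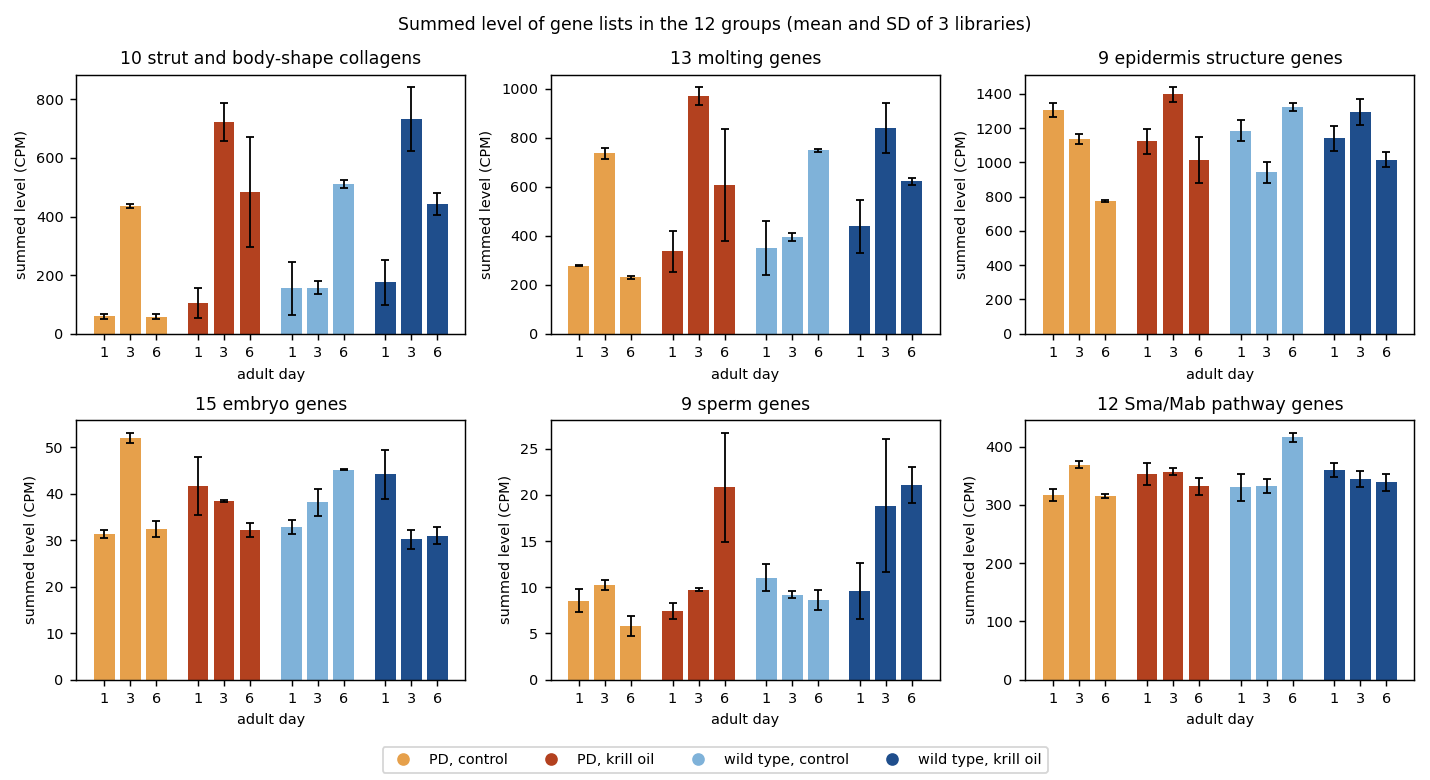
Summed level (CPM, linear axes from 0) of the 10 collagens and of 5 gene lists in the 12 groups, as bars of the mean with SD over 3 libraries. The 10 collagens and the 13 molting genes are both low in PD controls of day 6 (58.0 and 230 CPM) and high in wild type controls of day 6 (512 and 749 CPM), while the 12 Sma/Mab pathway genes stay between 316 and 417 CPM.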

How the data were processed

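Ribosomal RNA was depleted from total RNA of whole worms, and the paired reads were mapped by the authors to the WBcel235 genome. Their processing notes name STAR 2.7.10a, SAMtools 1.15.1 and UMI-tools 1.1.2. The authors deposited 1 table of raw counts per gene for each of the 36 libraries, with no normalization. The methods name STAR's gene counting for a prediction of biological age only. For the deposited counts, the counting program and its strand setting are not given in the sources used here. Gene names and exon lengths were taken from Ensembl release 115 of the same build (the authors used release 96), in which 46603 identifiers were found and 43818 had a symbol.

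The members and the 13 other gene lists were chosen with earlier results of these data known. In R 4.3.3, counts were filtered by filterByExpr (count minimum 10), scaled by TMM and tested with edgeR 4.0.16 by its quasi-likelihood test, with only the groups compared in each fit. Benjamini-Hochberg adjustment ran over all genes tested, and the threshold was 0.05. The standard error is the log2 fold change divided by the square root of F. CPM is on 1 TMM scale over the 36 libraries, and log2 CPM uses a prior count of 2. In all, 27 comparisons were made. The genes named are the 10 members, the 3 genes most like each in pattern, and up to 3 genes with the smallest p of each list and comparison. The median fold change of all genes is given in some comparisons of the members, and not beside the medians of the other lists. Of the list genes, 1 (elt-5) matched no identifier. The scripts were tested on simulated data.

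Replicate numbers were not used as pairs, since correlations of same-numbered deviations between diets were -0.03 to 0.28. The highest was that of replicate 1 in PD animals at day 6. With 3 libraries per group, such values cannot show that no pairing exists. No replicates were duplicates. Alternatives were DESeq2 1.42.0, RLE factors, a filter on all-zero genes only, the replicate number as a block, all 36 libraries in 1 fit, and each library left out in turn. Sequences of the members were not used here.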

Additional observations from a re-analysis of the deposited data

Results flagged for a closer look

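The response to krill oil differed between strains or ages by the interaction test of edgeR (adjusted p under 0.05) for the values below, each a difference of 2 log2 fold changes in groups of 3 libraries, and no explanation was weighed.

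Between the strains at day 3 (PD minus wild type), the differences were -4.87 for bli-6, -1.23 for sqt-3, -1.05 for dpy-14 and -1.04 for dpy-17. That of bli-6 was -1.23 without PD control replicate 2 and -6.85 without wild type control replicate 3, and its call was lost by DESeq2 (-4.94, adjusted p = 0.0818) and without PD control replicate 2, each PD krill oil library, wild type control replicate 1 or 2 or wild type krill oil replicate 2. At day 6 they were 2.86 for lon-3, 3.92 for rol-6, 3.67 for sqt-1, 3.53 for sqt-3, 3.82 for dpy-13, 3.64 for dpy-14 and 3.82 for dpy-17. Without PD control replicate 1, those of lon-3, sqt-1 and dpy-13 were 3.47, 4.43 and 4.49.

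Between day 3 and day 1 in PD animals, the strut genes differed by 5.26 (bli-1), 5.24 (bli-2) and 5.37 (bli-6), and lon-3, rol-6, sqt-1 and dpy-13 by 3.60, 4.20, 4.40 and 4.15, while dpy-14 differed by -1.08. Without PD control day 3 replicate 2 the values were 7.74 for bli-1, 8.26 for bli-2, 9 for bli-6, 5.12 for sqt-1 and 5.33 for dpy-13, and without PD krill oil day 1 replicate 2 that of bli-1 was 5.86. That of dpy-14 was -0.54 without PD krill oil day 1 replicate 1, and its call was lost by DESeq2 (-1.06, adjusted p = 0.0814) and with all 36 libraries in 1 fit (-1.09, edgeR adjusted p = 0.0929). Without PD control day 1 replicate 1, the calls of lon-3 (3.09) and dpy-14 (-1.03) were lost, and without replicate 2 of that group those of lon-3 (3.30) and bli-2 (4.95). Between day 6 and day 3 in PD animals, sqt-3, dpy-14 and dpy-17 differed by 1.89, 0.89 and 1.07, and with all 36 libraries in 1 fit the calls of dpy-14 and dpy-17 were lost (0.88 and 1.06, edgeR adjusted p = 0.127 and 0.0592).

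Between day 3 and day 1 in wild type animals, the differences were 8.42 for bli-1, 10.91 for bli-2, 9.09 for bli-6, 6.49 for lon-3, 4.96 for rol-6, 5.75 for sqt-1, 1.92 for sqt-3 and 6.82 for dpy-13. Several rest on groups with few counts, such as bli-2 with 2 in the controls of day 3 and rol-6 with 4 in the krill oil libraries of day 1. With control day 1 replicate 1 left out, bli-2 was at 9.38, and the calls of rol-6 (4.52) and sqt-1 (4.96) were lost. Without control day 1 replicate 2 the values were 11.59 for bli-2 and 6.37 for sqt-1, and without replicate 3 of that group 1.28 for sqt-3. Without control day 3 replicate 3 they were 10.29 for bli-2, 11.06 for bli-6 and 6.45 for sqt-1. Leaving out krill oil day 1 replicate 1 gave 11.52 for bli-2 and 4.33 for rol-6, leaving out replicate 2 gave 4.29 for rol-6, 5.07 for sqt-1 and 6.21 for dpy-13, and leaving out replicate 3 gave 8.73, 7.08 and 7.83 for the same 3 genes. Between day 6 and day 3 in wild type animals, the differences were -3.02 for lon-3, -3.32 for rol-6, -3.71 for sqt-1, -2.81 for sqt-3, -4.10 for dpy-13, -3.74 for dpy-14 and -3.73 for dpy-17. Without control day 3 replicate 3, those of rol-6 and sqt-1 were -3.91 and -4.42.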

How the results depend on the processing

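Of 239 results for single members, 145 were called, and 0 of the called values changed sign under the alternatives run. Of them, 22 were lost under DESeq2, RLE factors, the filter, the block or the joint fit, and 18 when 1 library was left out. The cause of these changes was not tested. Low counts limit the strut genes in controls and, at day 1, the members other than sqt-3, dpy-14 and dpy-17, which had at least 1112 counts in each group of that age. The median of all genes in the comparison of the controls at day 6 was -0.15 by edgeR and -0.47 by DESeq2.

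With only all-zero genes removed, the number of members called became 5 instead of 3 for krill oil in PD animals at day 1, 1 instead of 0 in wild type animals at day 1, 7 instead of 3 and 9 instead of 5 from day 3 to day 6 in PD controls and with krill oil, and 6 instead of 3 from day 3 to day 6 in wild type animals with krill oil. Between the strains it became 5 (controls, day 1), 9 (controls, day 3), 4, 7 and 3 (krill oil, day 1, 3 and 6), 4 and 9 for the response at day 1 and 3, and 8 for the change of the PD response from day 3 to day 6. By DESeq2 it became 4 between the controls at day 1 and 2 between the krill oil groups at day 6, where RLE factors also gave 2. With all 36 libraries in 1 fit it became 3 and 6 between the controls at day 1 and 3, 2 and 0 between the krill oil groups at day 3 and 6, and 2 for the strain difference in response at day 3. With the replicate number as a block it became 4 between the controls at day 1 and 2 instead of 5 from day 1 to day 3 in wild type controls, where bli-6, sqt-1 and dpy-13 were lost. Under the block no other call was lost, and the uncalled change of sqt-3 in wild type animals at day 1 was 0.060 instead of -0.03.

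Leaving out 1 library gave 2 to 5 members for krill oil in PD animals and 0 to 2 in wild type animals at day 1. From day 3 to day 6 it gave 3 to 5 in PD controls, 4 to 8 with krill oil, and 3 to 6 in wild type animals with krill oil, and from day 1 to day 3 in wild type controls 2 to 8. Between the strains it gave 0 to 4 and 3 to 5 in controls at day 1 and 3, 0 to 1 and 0 to 2 with krill oil at day 1 and 6, and 3 to 5 for the change of the PD response from day 3 to day 6. In wild type animals at day 1, the uncalled changes with krill oil ranged from -0.38 to 0.61 for sqt-3, from -0.064 to 1.05 for dpy-14 and from -0.17 to 0.89 for dpy-17.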
